A study of Macaca mulatta with 102 samples.

Results

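T cells of rhesus macaques sampled 6 to 12 days after a hematopoietic cell transplant, without prophylaxis against graft-versus-host disease (GVHD), were compared with T cells of healthy animals. The 4 arrays of the group NoRx.F were set against the group Healthy.Control, 46 arrays of 45 animals labelled as healthy controls, in which the 2 arrays of R.201 were averaged. The series holds 102 arrays of 66 animals in 16 groups. All groups are CD3+ T cells sorted from peripheral blood by flow cytometry, measured on Affymetrix rhesus arrays, and the study transplanted animals either with donor cells or with their own. NoRx is read here as no prophylaxis given to recipients of donor cells, which the group name abbreviates and does not spell out. NoRx.F holds 1 array each of R.50 (day 6 after transplant), R.51 (day 7), R.52 (day 8) and R.53 (day 12). The first 3 lie in batch 1 as the labels number batches, with 5 of the healthy animals, and R.53 in batch 2, with 10. R.53 also has an array in Healthy.Control, in batch 2, and is 1 of 11 animals of the 45 that also have arrays in other groups. The labels give no day for the healthy arrays. As short comparisons served Siro.F, recipients of donor cells given sirolimus, an inhibitor of mTOR (4 arrays, days 12 to 24, in the same 2 batches), and Auto.D14, recipients of their own cells at day 14 (3 arrays, all in batch 5, which holds no NoRx.F array). Age, conditioning, donor and GVHD grade were not used here, and the suffix F is kept as the labels write it. The blood of a recipient can hold T cells of both host and donor, which these arrays do not separate. Each array of a group is 1 animal, but 22 of the 66 animals have over 1 array in the series, so the spread behind the p values mixes differences between animals with repeats of the same animal.

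In acute GVHD, donor T cells recognise antigens of the recipient, divide, become effector cells and enter skin, gut and liver. A T cell that leaves rest switches off genes that hold it in the naive or memory state, copies its DNA, divides, and builds the enzymes, ribosomes and proteases that growth needs. Cytotoxic T cells load granules with granzymes, and inhibitory receptors such as LAG3 appear on cells that have been activated.

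Levels are log2 RMA signal intensities as deposited, so that a difference of 1 is a 2-fold change. Differences are NoRx.F minus Healthy.Control ± SE from 1 limma fit of all groups with the labelled batch, and adjusted p values are Benjamini-Hochberg values over the 31703 probe sets tested, with 0.05 as the threshold. A gene stands for its probe set with the highest mean. Array medians ran from 5.13 to 5.35 over the series, the highest being that of R.51. The actin controls give a sign of RNA quality, their 3' probe set minus their 5' one, which was 0.46 in R.50, 0.75 in R.51, 0.91 in R.52 and 0.12 in R.53, and ran from 0.246 to 3.951 in the healthy arrays. Among the healthy animals only 0.274% of probe sets had a batch p under 0.05 and 24.9% had one over 0.95, where chance gives 5% of each. Whether the values were adjusted for batch before deposit is not given in the sources used here, and p values from a fit with a batch term would not account for such a step. Without the batch term 11276 probe sets passed against healthy animals. Genes such as CD3D, CD3E, CD3G, PRF1, IL7R, CD38, PDCD1, LEF1 and ITGA4 were not analysed here, since no probe set of that gene alone passed the filter. Other T cell genes were looked at instead, which does not test the CD3+ label, since CD3D, CD3E and CD3G were not among them. Of 8 T cell markers 1 rose and 1 fell. Their mean level was 8.9 in R.53, just below the healthy animals (8.92 to 9.55), and within that range in R.50, R.51 and R.52. CD8A, a chain of the CD8 co-receptor that is not among those 8 markers, read 12.95 in R.50, 13.08 in R.51, 13.09 in R.52 and 12.94 in R.53. All were above the healthy animals (11.63 to 12.76, median 12.36). The T cell adaptor LAT differed by 0.05 ± 0.12, adjusted p = 0.823, and the kinase ZAP70, which carries the signal of the T cell receptor, by -0.00 ± 0.11, adjusted p = 0.987.

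The transcriptome of these T cells differed widely from that of healthy animals, in both directions. Of 31703 probe sets 8704, or 27.5%, passed the threshold, 4278 higher and 4426 lower, and 783 were at least 2-fold higher and 1218 at least 2-fold lower. Counted by gene, 2036 of 10718 rose (19%) and 1631 fell (15.2%), with a median difference of 0.05 over all genes. In 496 genes (4.63%) all 4 arrays lay above every healthy animal, and in 272 genes (2.54%) all 4 lay below every healthy animal. Among genes picked by the naming rule given with the processing, the largest rises were in genes of cell division, IFI27, LAG3 and the calprotectin genes S100A8 and S100A9. The largest falls among them were in SOX4, PTPN13, METTL14 and TAGAP. Within batches 1 and 2 alone, with only these groups in the fit, 6757 probe sets passed.

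**Figure D1:**
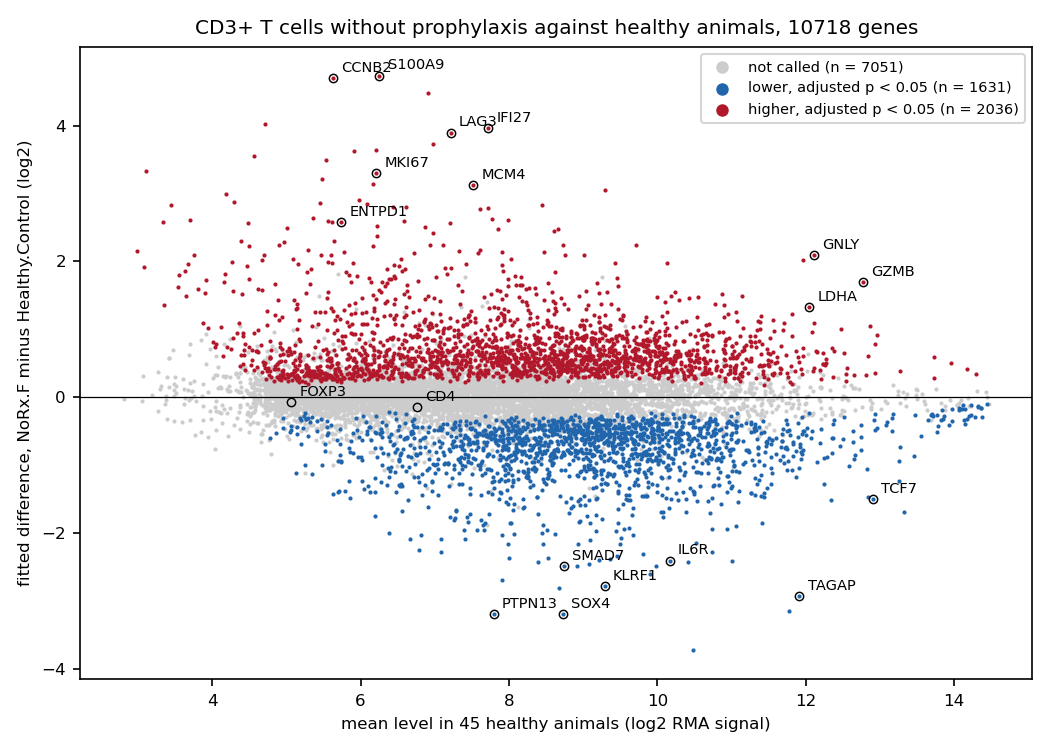
Each point is 1 of 10718 genes, with its mean level in the 45 healthy animals (log2 RMA signal) across and the fitted difference NoRx.F minus Healthy.Control (log2) upwards, red for the 2036 that rose, blue for the 1631 that fell and grey for the rest. Circled genes are named, from CCNB2 at 4.70 and S100A9 at 4.73 down to SOX4 at -3.20. FOXP3, whose level is too low to measure a difference well, and CD4 lie near 0.

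Genes that copy DNA were higher in all 4 animals. The strongest were those of the MCM helicase, the ring of 6 proteins that unwinds DNA at replication origins. MCM4 read 11.49 in R.50, 10.02 in R.51, 11.27 in R.52 and 9.82 in R.53, against 6.94 to 8.28, median 7.48 in the healthy animals, a difference of 3.12 ± 0.25, adjusted p = 1.41e-17. MCM3 read 11.46, 9.95, 11.07 and 9.65 in the same order (6.96 to 8.38, median 7.67 in healthy animals), a difference of 2.79 ± 0.26, and MCM2 and MCM5 rose by 2.57 ± 0.23 and 2.45 ± 0.21. In each of these 4 genes the lowest NoRx.F array was above the highest healthy animal. GINS2, a part of the complex that joins the helicase, rose by 2.37 ± 0.29, and MCM10, which helps start the fork, by 2.13 ± 0.32. PCNA, the clamp that holds the polymerase on DNA, read 13.03 in R.50, 11.28 in R.51, 12.73 in R.52 and 11.40 in R.53 (9.26 to 10.64, median 10.14) and rose by 1.98 ± 0.24, adjusted p = 1.09e-10. It was higher by over 1 unit in R.50 and R.52 than in R.51 and R.53. E2F8, a repressor that closes the S phase programme, read 6.32 in R.50, 4.75 in R.51, 6.99 in R.52 and 6.27 in R.53 (2.59 to 4.98, median 3.50), with R.51 inside the healthy range, and rose by 2.83 ± 0.44. The healthy level of E2F8 is below 5.2133, the median of all values, so the size of its rise is poorly measured. Of 32 measured genes of replication and G1/S 27 rose and 1 fell, with a median difference of 1.332 and 18 genes without overlap with the healthy animals. The gene that fell, POLE2 of polymerase epsilon, had another probe set that rose, and the mean of both was higher, so its direction is uncertain. CDK2, the kinase of the G1/S transition, differed by 0.39 ± 0.28, adjusted p = 0.312, POLD1, the catalytic subunit of polymerase delta, by 0.20 ± 0.14, adjusted p = 0.299, and CLSPN, an adaptor of the replication checkpoint, by 0.17 ± 0.51, adjusted p = 0.848.

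Genes of mitosis made the largest coordinated difference. CCNB2, a cyclin that drives entry into mitosis, read 11.15 in R.50, 9.47 in R.51, 10.82 in R.52 and 9.65 in R.53, while no healthy animal was above 6.71. The difference was 4.70 ± 0.47, adjusted p = 1.78e-13. TOP2A, the topoisomerase that untangles chromosomes, read 10.42 in R.50, 9.18 in R.51, 10.88 in R.52 and 8.67 in R.53 (4.49 to 7.75, median 6.25 in healthy animals) and rose by 3.64 ± 0.50, and CDKN3, a phosphatase that acts on CDK1 and CDK2, read 10.65, 8.67, 9.94 and 8.67 and rose by 3.62 ± 0.34. MKI67, the proliferation marker Ki-67, read 10.003 in R.50, 8.91 in R.51, 9.72 in R.52 and 9.21 in R.53 (5.45 to 7.27, median 6.07), with all 3 of its probe sets higher, and rose by 3.30 ± 0.37, adjusted p = 1.56e-11. For all of these genes R.50 and R.52 were the highest arrays, and for CCNB2, TOP2A, CDKN3 and MKI67 no NoRx.F array reached down to the healthy range. CCNB1, the other main mitotic cyclin, read 10.40 in R.50, 8.08 in R.51, 9.50 in R.52 and 8.76 in R.53 (5.92 to 7.63, median 6.54) and rose by 2.60 ± 0.28, NCAPG, a condensin subunit that compacts chromosomes, rose by 2.91 ± 0.40, and CENPW, a protein of the centromere, by 2.85 ± 0.29. AURKA, the kinase that builds the spindle poles, read 7.62 in R.50, 7.01 in R.51, 7.95 in R.52 and 7.93 in R.53 (5.82 to 6.85, median 6.34) and rose by 1.39 ± 0.22. Unlike the cyclins it was as high in R.53 as in R.52. ASPM, a spindle pole protein, rose by 3.33 ± 0.46 from a healthy median of 3.15, a level so low that the size of its rise is poorly measured. Of 39 measured genes of mitosis 36 rose and none fell, with a median of 1.921, and DLGAP5, which binds spindle microtubules, differed by -1.13 ± 0.47, adjusted p = 0.0652, while its other probe set rose. The mean level of the list was 8.63 in R.50, 7.58 in R.51, 8.66 in R.52 and 8.03 in R.53, against 6.11 to 7.03 in the healthy animals. Without R.50 and R.52, which also carried the most S100A8 and S100A9, 31 of the 39 and 24 of the 32 replication genes still rose.

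Genes that supply and guard the new DNA rose with them. TYMS, the enzyme that makes thymidylate, read 9.47 in R.50, 7.40 in R.51, 9.81 in R.52 and 7.96 in R.53 (3.62 to 6.04, median 4.71), with every NoRx.F array above every healthy animal, and rose by 4.02 ± 0.50, adjusted p = 5.35e-10. Its healthy median is below 5.2133, the median of all values, so the size of this rise is poorly measured. MTHFD1 and SHMT2, which pass on one-carbon units for purines and thymidylate, rose by 1.57 ± 0.18 and 1.23 ± 0.16, and CTPS1, the CTP synthase that T cells depend on when they divide, by 1.19 ± 0.16. RRM1, the large subunit of ribonucleotide reductase, read 11.44 in R.50, 9.60 in R.51, 11.36 in R.52 and 10.24 in R.53 (9.37 to 10.21, median 9.79), with R.51 inside the healthy range. Of 14 genes of nucleotide synthesis 10 rose and none fell. Among 18 repair and checkpoint genes 14 rose and none fell, with the checkpoint kinase CHEK1 at 2.24 ± 0.28 and BARD1, the partner of BRCA1, at 1.79 ± 0.26. RAD54L, which remodels DNA during recombination, rose by 1.66 ± 0.24, above every healthy animal. Of 18 chromatin genes of dividing cells 13 rose and 1 fell. UHRF1, which carries DNA methylation over to the new strand, read 9.87 in R.50, 8.15 in R.51, 9.58 in R.52 and 8.36 in R.53 (4.72 to 6.90, median 5.49) and rose by 3.49 ± 0.44. CHAF1A, the chaperone that loads histones behind the fork, rose by 1.94 ± 0.21 on all 4 of its probe sets, and the nuclear lamin LMNB1 by 1.97 ± 0.26. DNMT1, the maintenance methyltransferase, differed by -0.19 ± 0.22, adjusted p = 0.564. Without R.50 and R.52 the rises numbered 6 of 14, 8 of 18 and 6 of 18.

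**Figure D2:**
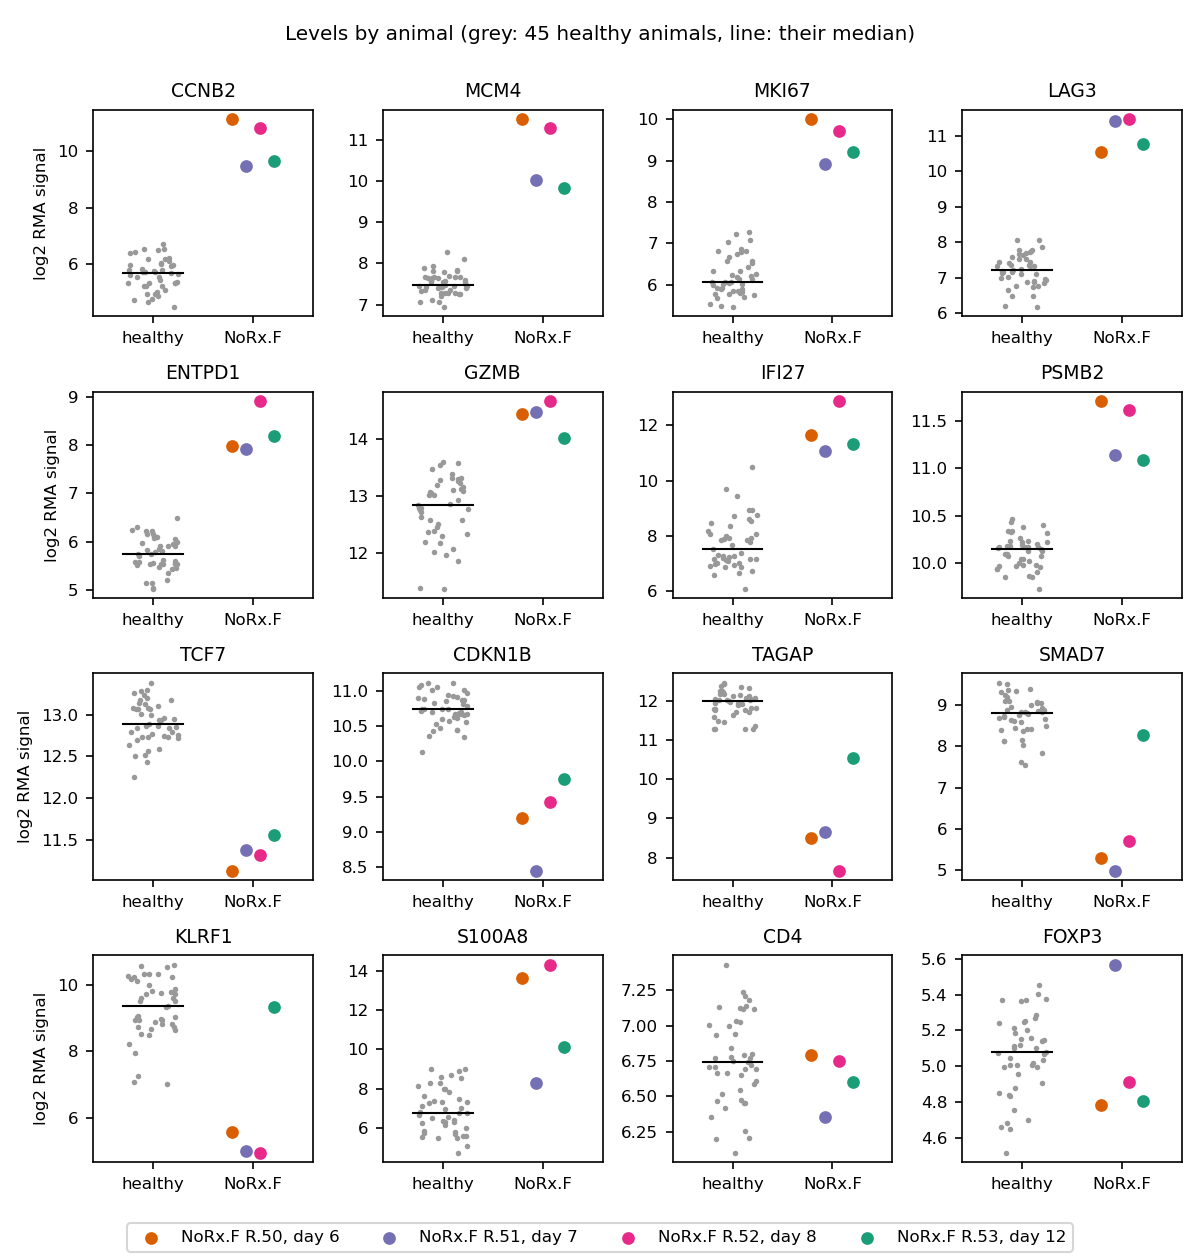
Levels (log2 RMA signal) of 16 genes in the 45 healthy animals (grey, line at their median) and in the 4 NoRx.F arrays (coloured by animal and day). CCNB2, MCM4, MKI67, LAG3, ENTPD1, GZMB, IFI27 and PSMB2 lie above and TCF7, CDKN1B and TAGAP below every healthy animal in all 4, while R.53 stays within the healthy range of SMAD7 and KLRF1 and S100A8 ranges from 8.27 to 14.31.

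Among genes that keep T cells at rest more fell than rose. CDKN1B, which encodes the cell cycle inhibitor p27, read 9.19 in R.50, 8.44 in R.51, 9.42 in R.52 and 9.74 in R.53 (10.14 to 11.12, median 10.74), below every healthy animal, a difference of -1.49 ± 0.15, adjusted p = 1.1e-13. TXNIP, which restrains glucose uptake, read 11.88 in R.50, 10.96 in R.51, 11.51 in R.52 and 12.13 in R.53 (12.68 to 13.75, median 13.32), and all 5 of its probe sets fell, the one shown at -1.69 ± 0.18. SESN1, a stress protein that curbs mTORC1, fell by 2.32 ± 0.24, PIK3IP1, an inhibitor of PI3 kinase, fell by 1.69 ± 0.24, and TSC22D3, the glucocorticoid-induced protein GILZ, fell by 1.47 ± 0.18. R.53 was the least changed array in CDKN1B, TXNIP, SESN1, PIK3IP1 and TSC22D3. Of 20 inhibitors and quiescence genes 9 fell (45%, against 15.2% of all genes) and 2 rose (10%, against 19%), with a median of -0.732. The 2 that rose were the INK4 inhibitors CDKN2C (0.94 ± 0.19) and CDKN2A (1.47 ± 0.42, adjusted p = 0.0582 without R.53), while FOXO1, a factor of quiescence and naive cells, differed by -0.67 ± 0.29, adjusted p = 0.0726 and RB1, the retinoblastoma protein, by 0.37 ± 0.17, adjusted p = 0.0974.

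About as many genes of naive and memory cells fell as did not pass the threshold, and none rose. TCF7, the transcription factor TCF-1 of naive and stem-like T cells, read 11.13 in R.50, 11.38 in R.51, 11.31 in R.52 and 11.56 in R.53, below every healthy animal (12.26 to 13.38, median 12.89), a difference of -1.50 ± 0.18, adjusted p = 2.91e-10. IL6R, the interleukin-6 receptor, read 8.19 in R.50, 7.92 in R.51, 6.73 in R.52 and 8.24 in R.53 (8.73 to 10.84, median 10.26) and fell by 2.41 ± 0.29, again without overlap. KLF7, a zinc finger factor, fell by 1.98 ± 0.28, and KLF3, a repressor of the same family, read 8.73 in R.50, 8.29 in R.51, 8.54 in R.52 and 10.06 in R.53 (10.10 to 11.50, median 10.89), with R.53 just below the healthy minimum, and fell by 1.94 ± 0.22. RCAN3, an inhibitor of calcineurin, fell by 1.29 ± 0.28 to a like level in all 4 animals. CCR7, the receptor that leads T cells into lymph nodes, read 8.63 in R.50, 9.13 in R.51, 8.32 in R.52 and 8.62 in R.53 (8.32 to 11.17, median 9.93), and GPR183, which guides cells within them, fell by 1.53 ± 0.30. CCR7 stayed at the low end of the healthy range, so that its difference of -1.28 ± 0.37, adjusted p = 0.0048 left an overlap, and it did not pass without R.50 and R.52 (adjusted p = 0.106). Of 29 measured genes 14 fell and none rose, with a median of -0.698. CD28, the costimulatory receptor, differed by -0.10 ± 0.28, adjusted p = 0.831, BCL2, the survival factor, by -0.29 ± 0.19, adjusted p = 0.285, SATB1, an organiser of T cell chromatin, by -0.61 ± 0.35, adjusted p = 0.202, and BCL11B, which keeps T cell identity, by -0.71 ± 0.35, adjusted p = 0.123.

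Several inhibitory receptors rose, led by LAG3, while most members of their list did not pass the threshold. LAG3, which binds MHC class II and dampens T cells, read 10.54 in R.50, 11.40 in R.51, 11.46 in R.52 and 10.75 in R.53, against 6.18 to 8.07, median 7.23 in healthy animals, a difference of 3.89 ± 0.35, adjusted p = 3.63e-15. It was nearly as high in R.51 as in R.52, unlike the division genes. ENTPD1, the ectonucleotidase CD39, read 7.98 in R.50, 7.92 in R.51, 8.91 in R.52 and 8.17 in R.53 (5.02 to 6.49, median 5.74), with 3 of 3 probe sets higher, and rose by 2.58 ± 0.28, adjusted p = 7.59e-12. HAVCR2, the receptor TIM-3, rose by 1.43 ± 0.19, CTLA4, which competes with CD28 for its ligands, by 1.56 ± 0.36, and TIGIT by 1.19 ± 0.25. CTLA4 was highest in R.50 at 9.41 and within the healthy range in R.51 at 7.36, and its rise did not pass without R.50 and R.52 (adjusted p = 0.16). TOX, a transcription factor tied to T cell exhaustion, moved against them and read 8.98 in R.50, 8.16 in R.51, 8.63 in R.52 and 9.11 in R.53 (8.62 to 10.40, median 9.99), a difference of -1.07 ± 0.19, adjusted p = 6.31e-06. Of 20 measured inhibitory and exhaustion genes 6 rose (30%, against 19% of all genes) and 1 fell (5%, against 15.2%), with a median of 0.228. CBLB, a ubiquitin ligase that raises the threshold of activation, differed by 0.56 ± 0.48, adjusted p = 0.423 and the phosphatase PTPN22 by -0.43 ± 0.25, adjusted p = 0.201.

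Activation markers split. IL2RA, the high-affinity chain of the interleukin-2 receptor, read 8.58 in R.50, 6.82 in R.51, 7.72 in R.52 and 7.02 in R.53 (5.55 to 6.92, median 6.16) and rose by 1.27 ± 0.21, adjusted p = 1.13e-06. TNFRSF4, the receptor OX40, read 8.81 in R.50, 8.28 in R.51, 8.67 in R.52 and 8.30 in R.53 (6.92 to 8.33, median 7.71) and rose by 0.75 ± 0.19, adjusted p = 0.00172, with 2 arrays above the healthy maximum, a call lost when both were left out (adjusted p = 0.13). Its ligand TNFSF4 differed by 0.54 ± 0.22, adjusted p = 0.0626. CD70, the ligand of CD27, rose by 1.31 ± 0.32 and was highest in R.53 at 7.66, and ICOS, a costimulator that appears on activation, rose by 0.79 ± 0.24 but read 9.43 in R.53, below the healthy median of 9.47. CD40LG, the helper signal to B cells and dendritic cells, fell by 1.18 ± 0.23, adjusted p = 3.02e-05, and CD69, an early marker of stimulation, read 11.65 in R.50, 10.13 in R.51, 10.15 in R.52 and 10.94 in R.53 (10.46 to 12.63, median 11.83), a difference of -0.95 ± 0.35, adjusted p = 0.0343 that did not pass without R.51, R.52 or R.53 (highest adjusted p = 0.132 without R.51). The rise of ICOS did not pass without R.50 (adjusted p = 0.0935) or R.52 (adjusted p = 0.1). TFRC, the transferrin receptor, differed by 0.43 ± 0.19, adjusted p = 0.08. Of 23 activation receptors and markers 7 rose (30.4%, against 19% of all genes) and 5 fell (21.7%, against 15.2%). Without R.52 the rises numbered 4, and the falls 2 without R.53 and 3 without R.51. Without R.50 and R.52 there were 2 rises.

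Several cytotoxic genes were higher, from an already high level. GZMB, granzyme B, read 14.45 in R.50, 14.47 in R.51, 14.68 in R.52 and 14.02 in R.53, above every healthy animal (11.37 to 13.60, median 12.84), a difference of 1.70 ± 0.36, adjusted p = 0.000129. GNLY, granulysin, read 13.70 in R.50, 14.21 in R.51, 14.61 in R.52 and 14.24 in R.53 (10.60 to 13.12, median 12.22) and rose by 2.09 ± 0.42, adjusted p = 5.43e-05. SERPINB9, which protects killer cells from their own granzyme B, rose by 1.68 ± 0.29, also without overlap. NKG7 and CST7, a granule membrane protein and the protease inhibitor cystatin F, rose by 1.37 ± 0.40 and 1.23 ± 0.38. FGFBP2, a marker of cytotoxic cells, read 11.18 in R.50, 10.24 in R.51, 10.82 in R.52 and 8.17 in R.53 (5.62 to 10.17, median 8.11), with R.53 near the healthy median, and its rise of 2.03 ± 0.64, adjusted p = 0.011 was 1.72 ± 0.70, adjusted p = 0.0637 without R.50, short of the threshold. NKG7 read 12.01, 12.01, 11.96 and 12.21 in the 4 arrays and its rise left an overlap with the healthy animals (9.21 to 12.10, median 10.76). Of 19 granule and killing genes 9 rose (47.4%, against 19% of all genes) and none fell. Without R.50 and R.52 the rises numbered 5. GZMA, granzyme A, differed by 0.13 ± 0.33, adjusted p = 0.823, GZMH by 0.64 ± 0.49, adjusted p = 0.362, and SRGN, the proteoglycan of the granules, by -0.09 ± 0.09, adjusted p = 0.494. CD8A and CD8B, the 2 chains of CD8, rose by 0.73 ± 0.16, adjusted p = 0.000153 and 1.12 ± 0.26, adjusted p = 0.00045, while CD4 read 6.79 in R.50, 6.36 in R.51, 6.75 in R.52 and 6.60 in R.53, within 6.10 to 7.43, median 6.74, a difference of -0.15 ± 0.20, adjusted p = 0.636. In these bulk samples more cells of a type and more RNA per cell cannot be told apart.

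Among the transcription factors of effector cells, BATF, which works with IRF4 in activated T cells, read 9.94 in R.50, 9.74 in R.51, 9.66 in R.52 and 9.04 in R.53 (7.43 to 8.96, median 8.14) and rose by 1.47 ± 0.21, adjusted p = 4.38e-08. TBX21 and EOMES, the factors of Th1 and cytotoxic cells, differed by 0.26 ± 0.45, adjusted p = 0.723 and -0.35 ± 0.36, adjusted p = 0.524, and PRDM1, which encodes BLIMP-1, by 0.28 ± 0.33, adjusted p = 0.577. RUNX1, which guides early T cells and restrains activation, fell by 1.51 ± 0.15, adjusted p = 8e-14, below every healthy animal in all 4 arrays, on 2 of its 5 probe sets. MYC, which raises growth metabolism, read 8.77 in R.50, 8.80 in R.51, 8.35 in R.52 and 9.36 in R.53 (9.07 to 11.25, median 10.27), a difference of -1.41 ± 0.32, adjusted p = 0.000297. Of 24 factors 5 rose (20.8%, against 19% of all genes) and 3 fell (12.5%, against 15.2%), shares near those of all genes. There were 2 rises without R.52 and as many without R.50 and R.52. Of 11 Th1 genes 3 rose (27.3%, against 19% of all genes). Among them the chemokine receptor CXCR3 read 9.74 in R.50, 9.45 in R.51, 9.78 in R.52 and 8.93 in R.53 (7.09 to 8.59, median 7.96), above every healthy animal, and rose by 1.51 ± 0.22, adjusted p = 3.41e-08. IL12RB1, a chain of the interleukin-12 receptor, rose by 0.68 ± 0.15, and IFNG, which encodes interferon gamma, differed by 1.03 ± 0.55, adjusted p = 0.163. Of 7 Th2 genes none rose and 3 fell (42.9%, against 15.2% of all genes), including IL4R at -0.95 ± 0.23 on 1 of its 2 probe sets. GATA3, the Th2 factor, differed by -0.15 ± 0.18, adjusted p = 0.609.

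Genes often used to mark regulatory T cells rose in part. Of 20 measured 9 rose (45%, against 19% of all genes) and 2 fell (10%, against 15.2%), with a median of 0.468. All 9 are also on other lists described here, ENTPD1, CTLA4, BATF, IL2RA, TIGIT and TNFRSF4 among them. FOXP3, the factor that defines these cells, read 4.78 in R.50, 5.57 in R.51, 4.91 in R.52 and 4.80 in R.53 (4.52 to 5.46, median 5.08), a difference of -0.07 ± 0.14, adjusted p = 0.751. In 3 of the 4 arrays FOXP3 was below the healthy median, and R.51, the array with the highest overall median, was above the healthy maximum. The healthy median of FOXP3 is itself below 5.2133, the median of all values. At so low a level a difference, or the lack of one, is poorly measured. IKZF4, which encodes Eos, a partner of FOXP3, differed by -0.12 ± 0.19, adjusted p = 0.702, and TNFRSF18, the receptor GITR, by 0.59 ± 0.26, adjusted p = 0.0849.

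Few chemokine and egress receptors rose, and more fell. Beside the rise of CXCR3 and the falls of CCR7 and GPR183, CXCR4, which holds cells in bone marrow, fell by 1.57 ± 0.37, adjusted p = 0.000518, and S1PR4, a receptor for sphingosine phosphate, rose by 0.88 ± 0.16, adjusted p = 8.25e-06. Of 16 chemokine and egress receptors 2 rose (12.5%, against 19% of all genes) and 5 fell (31.2%, against 15.2%). Without R.52 these counts were 4 and 3. ITGB7, a chain of the gut-homing integrin, read 11.01 in R.50, 11.26 in R.51, 10.76 in R.52 and 10.26 in R.53 (9.33 to 10.68, median 10.14), with R.53 near the healthy median, and rose by 0.64 ± 0.18, adjusted p = 0.00324. ITGAE, the CD103 chain that binds E-cadherin on epithelium, rose by 0.94 ± 0.21 (adjusted p = 0.224 without R.50 and R.52), and ITGA6, a laminin receptor chain of resting T cells, fell by 1.09 ± 0.24. Of 18 genes of integrins and homing 6 rose (33.3%, against 19% of all genes) and 2 fell (11.1%, against 15.2%). The other 10 did not pass, and in none of the 18 did all 4 arrays lie above or all 4 below every healthy animal.

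Several genes of TGF-beta signalling fell. TGFBR1, the signalling receptor, read 8.59 in R.50, 7.89 in R.51, 7.89 in R.52 and 9.40 in R.53 (9.71 to 10.44, median 10.17), a difference of -1.63 ± 0.15, adjusted p = 3.9e-15, and all 4 arrays were below every healthy animal. SMAD7, the feedback inhibitor of the pathway, read 5.30 in R.50, 4.99 in R.51, 5.70 in R.52 and 8.27 in R.53 (7.55 to 9.54, median 8.81), so that 3 arrays were far below the healthy minimum and R.53 was not. The difference of -2.49 ± 0.35, adjusted p = 2.4e-08 was -3.46 ± 0.38, adjusted p = 1.18e-11 without R.53. TGIF1, a co-repressor of SMAD proteins, fell by 1.28 ± 0.16, and SMURF2, a ubiquitin ligase that removes the receptor, fell by 0.97 ± 0.16. Of 13 measured genes 6 fell (46.2%, against 15.2% of all genes) and 1 rose (7.69%, against 19%). The rise was that of FURIN, the protease that matures TGF-beta, by 0.73 ± 0.24. It did not pass without R.51 (adjusted p = 0.0548) or R.52 (adjusted p = 0.0511). TGFBR2 and SMAD2 differed by 0.18 ± 0.14, adjusted p = 0.366 and -0.18 ± 0.13, adjusted p = 0.326.

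Interferon-induced genes were higher, most of all in R.52. IFI27 read 11.67 in R.50, 11.08 in R.51, 12.89 in R.52 and 11.31 in R.53 (6.07 to 10.49, median 7.53), above every healthy animal, and rose by 3.96 ± 0.56, adjusted p = 2.22e-08. ISG15, a ubiquitin-like modifier, read 10.48 in R.50, 10.49 in R.51, 11.56 in R.52 and 10.19 in R.53 (7.31 to 9.30, median 7.93) and rose by 2.61 ± 0.40, adjusted p = 1.25e-07. Both were high in the other 3 animals as well. IRF8, a regulator of interferon responses, rose by 2.52 ± 0.30, highest in R.53, and PLSCR1, an antiviral lipid scramblase, by 2.23 ± 0.43. IFI30, a thiol reductase of antigen processing, rose by 2.15 ± 0.43, and the antiviral genes OASL and MX2 by 1.75 ± 0.37 and 1.65 ± 0.37, all 3 above every healthy animal. The antiviral GTPase MX1 read 9.20 in R.50, 8.69 in R.51, 10.79 in R.52 and 8.47 in R.53 (6.63 to 8.74, median 7.69), with R.51 and R.53 within the healthy range, and rose by 1.47 ± 0.50, adjusted p = 0.0186. Without R.52 this was 1.03 ± 0.54, adjusted p = 0.167, short of the threshold. Of 42 measured genes 27 rose and 1 fell, with a median of 0.675, and 16 rose without R.52, 13 without R.50 and R.52. The 1 that fell, OAS1, has 3 other probe sets, of which 2 rose. The mean level of the list was 9.5 in R.50, 9.33 in R.51, 10.22 in R.52 and 9.44 in R.53, against 8.39 to 9.02 in the healthy animals. IFIT3, an antiviral protein often used to read this response, read 10.79 in R.50, 9.94 in R.51, 11.80 in R.52 and 10.15 in R.53 (8.72 to 10.54, median 9.53) and differed by 1.05 ± 0.42, adjusted p = 0.051, IFITM1, a membrane protein that blocks viral entry, by 0.11 ± 0.05, adjusted p = 0.0588, and TRIM22 by -0.01 ± 0.28, adjusted p = 0.986. Immunoproteasome genes rose beside them, PSMB10 by 1.54 ± 0.16, adjusted p = 5.54e-13 and its activator subunit PSME2 by 1.35 ± 0.12, adjusted p = 3.37e-15, both above every healthy animal in all 4 arrays.

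Many genes of mitochondria, protein turnover and secretion rose, mostly by less than 2-fold and most in R.50 and R.52. LDHA, which turns pyruvate to lactate, read 13.67 in R.50, 13.37 in R.51, 13.50 in R.52 and 13.08 in R.53 (11.61 to 12.38, median 12.06) and rose by 1.33 ± 0.12, adjusted p = 1.04e-14, and ENO1, enolase, read 13.76 in R.50, 13.43 in R.51, 13.48 in R.52 and 13.30 in R.53 (12.22 to 12.72, median 12.46) and rose by 1.00 ± 0.08, adjusted p = 8.72e-18. Neither gene overlapped between the groups, and R.53 was the lowest of the 4 arrays in both. Of 19 glycolytic and lactate genes 10 rose and none fell, while SLC2A3, a glucose transporter, differed by 0.05 ± 0.28, adjusted p = 0.918. Of 25 genes of respiratory complex I 20 rose and 1 fell, with NDUFB7 at 1.00 ± 0.11 and NDUFB4 at 0.90 ± 0.10 among those without overlap. ATP5MC3, part of the rotor of ATP synthase, read 12.94 in R.50, 12.26 in R.51, 12.80 in R.52 and 12.22 in R.53 (11.23 to 11.81, median 11.57) and rose by 0.97 ± 0.09, adjusted p = 4.64e-14. In all, 9 of 16 genes of complexes III and IV and 10 of 13 of ATP synthase rose, and 1 and none fell. COX6B1 of complex IV rose by 1.00 ± 0.11. Of 57 proteins of the mitochondrial ribosome 43 rose and none fell, by 1.57 ± 0.25 for MRPL42 and 1.40 ± 0.12 for MRPL12, and SLC25A5, which exchanges ADP for ATP across the inner membrane, rose by 1.09 ± 0.13.

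Proteasome genes rose almost throughout. PSMB2, a subunit of the catalytic core, read 11.71 in R.50, 11.14 in R.51, 11.61 in R.52 and 11.09 in R.53 (9.73 to 10.46, median 10.15), and rose by 1.25 ± 0.11, adjusted p = 7.21e-16 on 1 of its 2 probe sets. PSMB6 and PSMD8, of the core and the regulatory lid, rose by 1.06 ± 0.10 and 1.06 ± 0.12, again with no overlap. Of 23 genes 21 rose and none fell, with a median of 0.687. In the secretory pathway SEC61B, a subunit of the channel into the endoplasmic reticulum, read 11.95 in R.50, 11.63 in R.51, 12.12 in R.52 and 11.30 in R.53 (10.31 to 10.77, median 10.53) and rose by 1.18 ± 0.09, adjusted p = 1.03e-17, and the chaperone cofactor SDF2L1 rose by 1.38 ± 0.13. Of 19 genes there 11 rose (57.9%, against 19% of all genes) and 2 fell (10.5%, against 15.2%). Within these groups R.50 and R.52 were again the highest arrays. The mean level of the mitochondrial ribosome list was 9.76 in R.50, 9.24 in R.51, 9.65 in R.52 and 9.27 in R.53, against 8.66 to 9.07 in the healthy animals. That of the proteasome list was 10.96 in R.50, 10.37 in R.51, 10.84 in R.52 and 10.58 in R.53, against 9.8 to 10.21 in the healthy animals. Without R.50 and R.52 the rises were 20 of 57 for the mitochondrial ribosome, 12 of 23 for the proteasome, 14 of 25 for complex I, 5 of 16 for complexes III and IV, 6 of 13 for ATP synthase and 8 of 19 for glycolysis.

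Cytosolic ribosomal proteins did not follow. Of 34 measured 21 fell and 1 rose, mostly by small amounts, with a median of -0.185. RPLP2 of the ribosomal stalk read 13.76 in R.50, 13.54 in R.51, 13.60 in R.52 and 13.57 in R.53 (13.86 to 14.13, median 13.97), a difference of -0.36 ± 0.05, adjusted p = 3.75e-08, and RPL32 fell by 1.18 ± 0.13, adjusted p = 1.98e-11, on 1 of its 2 probe sets. Most of these probe sets are near the top of the scale, and ribosomal genes have many near-identical pseudogenes that can share probes. RPL24, the 1 that rose, differed by 1.47 ± 0.34, adjusted p = 0.000449. Only 11 of the falls passed within batches 1 and 2. Of 28 genes of ribosome biogenesis and MYC targets 9 rose (32.1%, against 19% of all genes) and 2 fell (7.14%, against 15.2%). The other 17 did not pass, and the median was 0.175. NHP2, a protein of the particles that modify ribosomal RNA, was among the rises at 0.91 ± 0.11. NPM1, a main nucleolar protein, differed by 0.08 ± 0.07, adjusted p = 0.38, and NOP56 by 0.05 ± 0.13, adjusted p = 0.824.

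Of 25 cytoskeletal and related genes 15 rose and 1 fell. VIM, vimentin, read 14.15 in R.50, 13.85 in R.51, 14.10 in R.52 and 13.74 in R.53 (12.30 to 13.40, median 12.90) and rose by 1.04 ± 0.16, adjusted p = 2.29e-07, and ANXA2, a membrane-binding annexin, rose by 0.99 ± 0.15. PFN1, profilin, which feeds actin filaments, rose by 0.99 ± 0.27, adjusted p = 0.00241, and S100A4, a calcium-binding protein of moving cells, by 0.92 ± 0.22, adjusted p = 0.000833. Each of these 4 genes was above every healthy animal in all 4 arrays. ANXA1, an anti-inflammatory annexin, was the 1 that fell and is named for that, by -0.66 ± 0.18 (adjusted p = 0.0741 without R.51). Pro-apoptotic genes were among the rises. BCL2L11, which encodes BIM, read 10.83 in R.50, 11.39 in R.51, 11.68 in R.52 and 11.78 in R.53 (9.43 to 10.69, median 9.97), with 6 of 6 probe sets higher, and rose by 1.47 ± 0.22, adjusted p = 8.22e-08. BAK1 and BAX, which open the mitochondrial outer membrane, rose by 1.36 ± 0.15 and 1.00 ± 0.18. BIRC3, an inhibitor of apoptosis and NF-kB target, fell by 1.44 ± 0.30, and CFLAR, which blocks death receptors, differed by -0.01 ± 0.15, adjusted p = 0.985. In all, 6 of 22 apoptosis and survival genes rose (27.3%, against 19% of all genes) and 1 fell (4.55%, against 15.2%).

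T cell receptor signalling genes changed in both directions. Of 23 measured 8 rose (34.8%, against 19% of all genes) and 5 fell (21.7%, against 15.2%), with a median of -0.001. Their mean level was 9.65 in R.50, 9.67 in R.51, 9.78 in R.52 and 9.82 in R.53, the last 2 above the healthy animals (9.14 to 9.75). SIT1, an adaptor that dampens the receptor, rose by 1.05 ± 0.16, adjusted p = 1.08e-07, above every healthy animal, and CSK, the kinase that restrains LCK, by 0.56 ± 0.10, adjusted p = 2.42e-06. SH2D1A, the adaptor SAP of the SLAM receptors, rose by 1.13 ± 0.24, adjusted p = 0.000153. RASGRP1, which couples the receptor to RAS, read 10.46 in R.50, 10.40 in R.51, 10.59 in R.52 and 11.30 in R.53 (11.25 to 12.00, median 11.59) and fell by 0.84 ± 0.11, adjusted p = 1.85e-09, with R.53 inside the healthy range. Of 21 NF-kB genes 4 rose and 4 fell, 19% each way, against 19% and 15.2% of all genes. The feedback inhibitor TNFAIP3, known as A20, fell by 1.29 ± 0.30, adjusted p = 0.000424, with 4 of its 5 probe sets lower. Of 14 immediate early genes, which respond within minutes to stimulation and to the handling of cells, 5 fell (35.7%, against 15.2% of all genes) and none rose. JUNB differed by -1.59 ± 0.35, adjusted p = 0.000178. FOS, of the same kind, differed by -1.45 ± 0.98, adjusted p = 0.291.

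**Figure D3:**
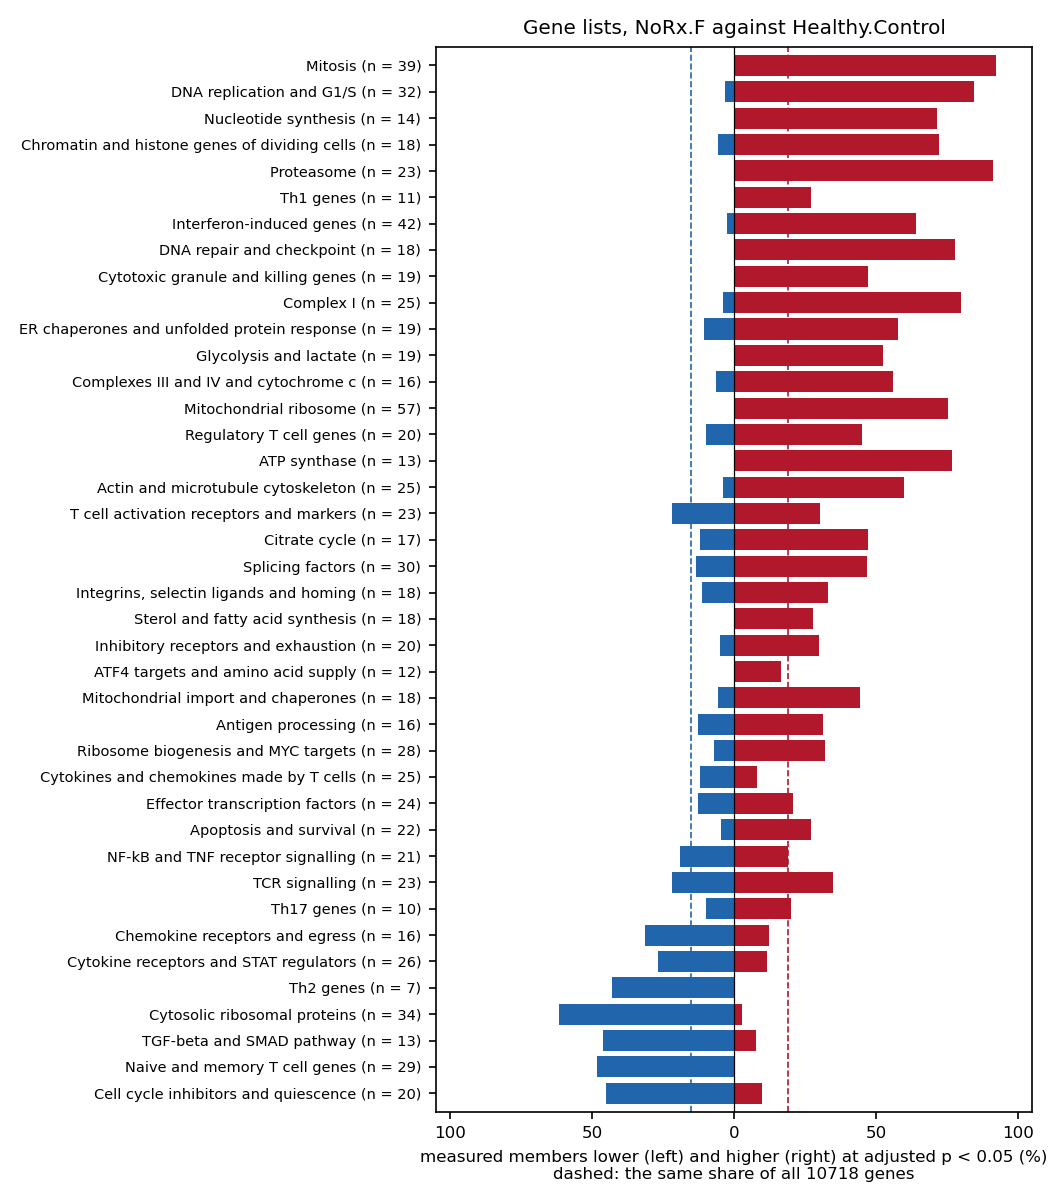
Each bar pair gives the share (%) of a list's measured members that rose (red, right) and fell (blue, left), for 40 lists ordered by median difference, with the number measured in brackets. Dashed lines mark the shares over all 10718 genes, 19% higher and 15.2% lower. Mitosis and the proteasome reach 92.3% and 91.3% higher, and cytosolic ribosomal proteins 61.8% lower.

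Some of the largest changes lay outside these lists. SERPINE2, an inhibitor of serine proteases, read 8.04 in R.50, 9.40 in R.51, 8.74 in R.52 and 10.34 in R.53 (5.25 to 8.06, median 6.19), highest in R.53, and rose by 3.15 ± 0.51, adjusted p = 5.13e-07 on 4 of 4 probe sets. SHCBP1, a midbody protein of dividing cells, rose by 3.55 ± 0.45. IFT46, a transport protein of cilia, rose by 3.73 ± 0.54 on 1 of its 2 probe sets. TAGAP, a GTPase-activating protein of T cells, read 8.49 in R.50, 8.66 in R.51, 7.67 in R.52 and 10.54 in R.53, below every healthy animal (11.27 to 12.45, median 11.99), a difference of -2.94 ± 0.24, adjusted p = 2.83e-17 shown by 5 of 5 probe sets. PTPN13, a tyrosine phosphatase, fell by 3.19 ± 0.34, and MYLIP, the ligase that degrades the LDL receptor, fell by 2.44 ± 0.23 on 3 of 3 probe sets. SUN1 of the nuclear envelope fell by 2.41 ± 0.21 and MARF1, a regulator of RNA, fell by 2.60 ± 0.22, the latter on 1 of 2 probe sets. SOX4, a transcription factor, read 5.17 in R.50, 5.00 in R.51, 4.81 in R.52 and 6.76 in R.53, while the healthy animals themselves ranged from 4.55 to 11.30, so that its difference of -3.20 ± 0.78, adjusted p = 0.000825 left all 4 arrays within the healthy range, 3 of them near its low end. ZBTB20, a transcriptional repressor, fell by 2.81 ± 0.31, SLC40A1, the iron exporter ferroportin, fell by 2.69 ± 0.39, and DACT1, a modulator of Wnt signalling, fell by 2.49 ± 0.41. AUTS2 fell by 2.48 ± 0.44 and PPP2R2B, a regulatory subunit of phosphatase PP2A, fell by 2.42 ± 0.47. METTL14, a subunit of the RNA methyltransferase for m6A, read 7.85 in R.50, 6.93 in R.51, 6.26 in R.52 and 11.83 in R.53 (9.74 to 13.27, median 12.00), low in 3 arrays and at the healthy level in R.53, and differed by -3.15 ± 0.70, adjusted p = 0.000257 on 2 of its 3 probe sets.

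Some markers of other blood cells moved in some of the same arrays. S100A8, a calprotectin subunit abundant in monocytes and neutrophils, read 13.62 in R.50, 8.27 in R.51, 14.31 in R.52 and 10.10 in R.53 (4.73 to 9.02, median 6.77), and S100A9, the other subunit, 13.05 in R.50, 8.14 in R.51, 14.10 in R.52 and 9.64 in R.53 (3.86 to 8.70, median 6.16). They rose by 4.48 ± 0.97, adjusted p = 0.000157 and 4.73 ± 1.00, adjusted p = 0.000107, and R.51 stayed within the healthy range of both, while R.53 lay above it. Of 14 monocyte and macrophage markers 3 rose (21.4%, near the 19% of all genes). The third was FCN1, whose 2 probe sets went in opposite directions and which did not pass without R.50, R.52 or R.53. CD14 and CSF1R, which define monocytes, differed by -0.24 ± 0.44, adjusted p = 0.735 and -0.05 ± 0.32, adjusted p = 0.931, LYZ, lysozyme, by 1.77 ± 0.98, adjusted p = 0.183, and TYROBP, an adaptor of myeloid and NK cells, by -1.43 ± 0.62, adjusted p = 0.0745. The mean level of the list was 7.74 in R.50, 5.92 in R.51, 7.93 in R.52 and 6.71 in R.53, against 4.88 to 7.46 in the healthy animals, so that R.50 and R.52 lay above the healthy range. These are the same arrays that were highest in the division, mitochondrial and proteasome genes, and the part of myeloid RNA in those results was not tested beyond the values without them. Without R.50 and R.52, 24 of the 161 called genes named here did not pass: CCR7, CDKN2A, CISH, CTLA4, FCN1, FGFBP2, FURIN, ICOS, IL17F, IL4R, ITGAE, KLRF1, LTB, METTL14, MX1, OAS1, OLFM4, PFN1, RRM1, S1PR5, SDHB, TNFRSF4 and, by which these arrays were left out, S100A8 and S100A9. Of 7 granulocyte markers 1 rose (14.3%, against 19% of all genes), OLFM4 by 0.35 ± 0.14, adjusted p = 0.0475, a call lost in 12 of 20 alternatives. MPO and ELANE, granule enzymes, differed by 0.28 ± 0.13, adjusted p = 0.105 and 0.29 ± 0.13, adjusted p = 0.0935. The mean level of this list was low, 5.09 to 5.97 in the healthy animals and 5.54 to 5.71 in NoRx.F. That is near 5.2133, the median of all values, so its differences are poorly measured. Plasma cell genes gave 3 rises among 6 (50%, against 19% of all genes). MZB1, a chaperone of antibody-secreting cells, rose by 1.25 ± 0.17, adjusted p = 1.19e-08, XBP1 by 0.58 ± 0.14, adjusted p = 0.000926 and FKBP11 by 0.63 ± 0.13, adjusted p = 7.16e-05. JCHAIN, the joining chain of secreted antibodies, differed by -0.12 ± 0.37, adjusted p = 0.859 and SDC1 by 0.18 ± 0.09, adjusted p = 0.128. The mean level of the plasma cell list was 7.52 in R.50, 7.53 in R.51, 7.6 in R.52 and 7.24 in R.53. The healthy animals ran from 6.74 to 7.5, so that R.50, R.51 and R.52 lay just above them. Whether plasma cells were present in these samples was not tested. Of 8 B cell markers only CD79B rose (12.5%, against 19% of all genes), by 0.97 ± 0.21, adjusted p = 0.00021. MS4A1, which encodes CD20, differed by -0.46 ± 0.52, adjusted p = 0.566. None of 7 platelet or 8 erythroid markers passed the threshold. The mean level of the platelet list in R.53 was nonetheless 8.0, above the healthy animals (5.88 to 7.73), and that of the 8 T cell markers 8.9, just below theirs (8.92 to 9.55). Of 3 dendritic cell markers measured 1 rose, GZMB, which cytotoxic cells also express, while CD1C, which defines a dendritic subset, differed by -0.13 ± 0.29, adjusted p = 0.793.

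Some NK cell markers were low in 3 animals and not in R.53. KLRF1, the receptor NKp80, read 5.57 in R.50, 5.00 in R.51, 4.95 in R.52 and 9.32 in R.53 (7.02 to 10.61, median 9.35), and S1PR5, which lets NK and effector cells leave tissues, 5.47 in R.50, 5.83 in R.51, 5.39 in R.52 and 7.91 in R.53 (6.17 to 9.30, median 7.82). Their differences of -2.79 ± 0.64, adjusted p = 0.000326 and -1.51 ± 0.50, adjusted p = 0.0161 became -4.10 ± 0.72, adjusted p = 4.08e-06 and -2.28 ± 0.58, adjusted p = 0.00151 without R.53. The fall of S1PR5 did not pass without R.50 (-1.32 ± 0.55, adjusted p = 0.0713) or R.52 (-1.29 ± 0.55, adjusted p = 0.0779). Of 9 NK markers 3 fell (33.3%, against 15.2% of all genes) and none rose (against 19%). The falls numbered 1 without R.50 and none without R.50 and R.52. Differences of the members ran from -2.789 to 1.016, so not all were negative. KLRD1, the CD94 chain of NK receptors, differed by -1.03 ± 0.53, adjusted p = 0.147, and NCAM1, which encodes CD56, by -0.20 ± 0.11, adjusted p = 0.198. The mean level of the list was 7.69 in R.50, 7.41 in R.51, 7.64 in R.52 and 8.49 in R.53, against 7.65 to 10.03 in the healthy animals.

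**Figure D4:**
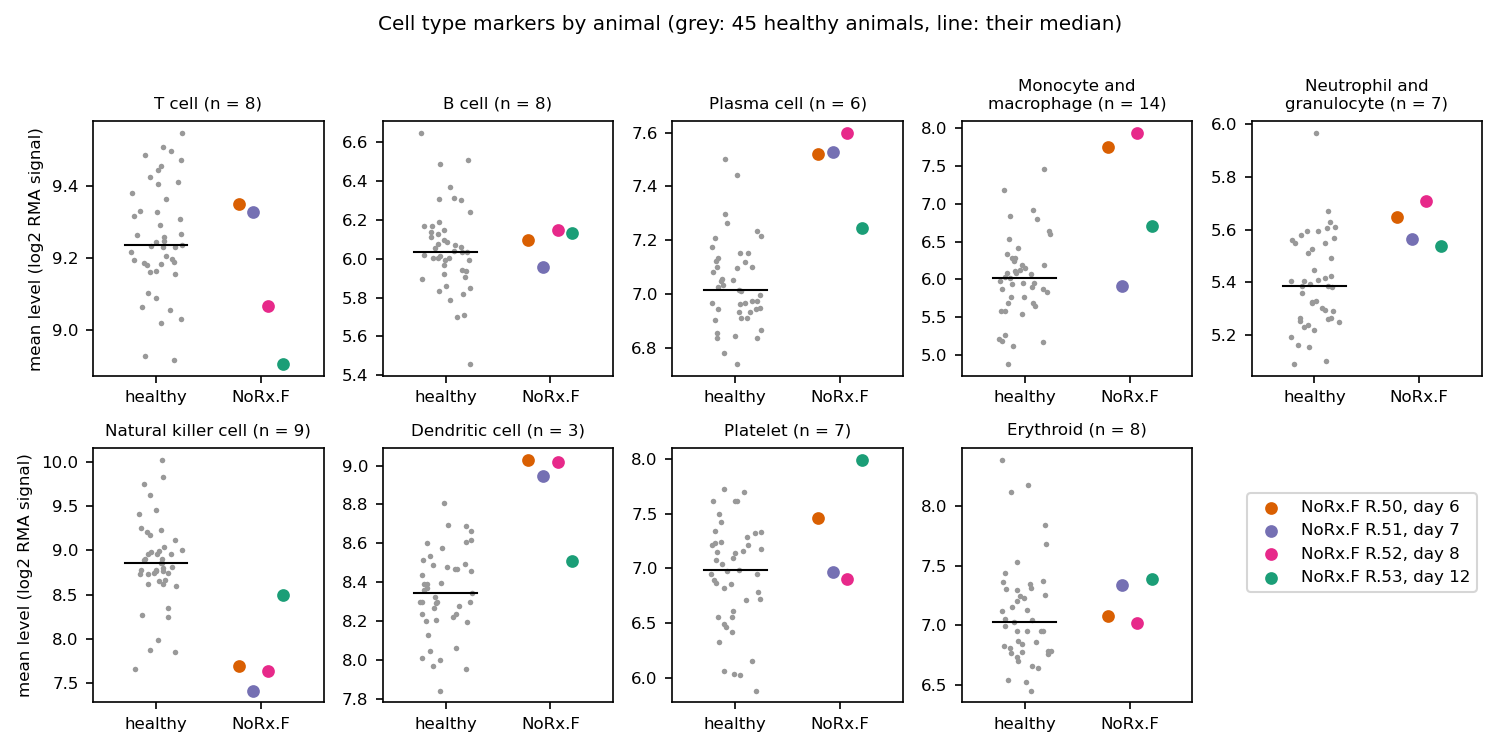
Mean level (log2 RMA signal) of 9 lists of cell type markers in each healthy animal (grey, line at the median) and each NoRx.F array (coloured). Monocyte markers are at 7.74 in R.50 and 7.93 in R.52 but 5.92 in R.51, and NK cell markers are at 7.41 to 7.69 in R.50, R.51 and R.52 but 8.49 in R.53.

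The 4 animals were not alike, and R.51 and R.53 stood apart from R.50 and R.52 in different ways. R.53, the latest array and the only one in batch 2, lay outside the healthy range in 1263 genes above and 589 below, against 1474 to 2013 above and 1255 to 1821 below in the other 3. In 421 genes the other 3 arrays were below every healthy animal and R.53 alone was not, a case that occurred for 26 to 41 genes when R.50, R.51 or R.52 was the one inside. Of 26 cytokine receptors and STAT regulators 3 rose (11.5%, against 19% of all genes) and 7 fell (26.9%, against 15.2%). Besides SMAD7, KLRF1 and METTL14 the 421 genes include 1 of that list, CISH, a suppressor of cytokine signalling that STAT5 induces, which read 6.42 in R.50, 6.28 in R.51, 6.44 in R.52 and 9.16 in R.53 (7.09 to 9.89, median 8.41). Its difference of -1.21 ± 0.39, adjusted p = 0.0137 was -2.04 ± 0.44, adjusted p = 0.000192 without R.53 and did not pass without R.50, R.51 or R.52, the highest adjusted p of these being 0.0785 without R.51. It did not pass within batches 1 and 2, without R.50 and R.52 together or with the mean of its probe sets either (adjusted p up to 0.358). In 276 genes R.51 alone was not above the healthy animals when the other 3 were, against 23 and 30 for R.52 and R.50 and 176 for R.53. Among these are E2F8, RRM1 and CTLA4. The day after transplant and the batch change together between R.53 and the other 3 and cannot be told apart.

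R.53 allowed a comparison within 1 animal. Its day 12 array minus its own array in Healthy.Control, both of batch 2, gave 4.88 for CCNB2, 3.37 for MKI67, 4.26 for LAG3 and 2.17 for GZMB, and -1.82 for TCF7 and -1.14 for CDKN1B. For SMAD7 it gave -0.15 and for KLRF1 1.11. Genes that passed in the fit without the day 12 array of R.53 were then looked up in R.53. Of the 1876 that were higher in R.50, R.51 and R.52, 1685 (89.8%) were also higher in R.53 at day 12, with a median of 0.55 against 0.68 in the fit. Of the 1567 that were lower, 1351 (86.2%) were also lower in R.53, with a median of -0.44 against -0.82. Among the 7275 genes that did not pass, 61.5% had the same sign. Both differences use the Healthy.Control array of R.53, in the fit as 1 of 45.

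**Figure D5:**
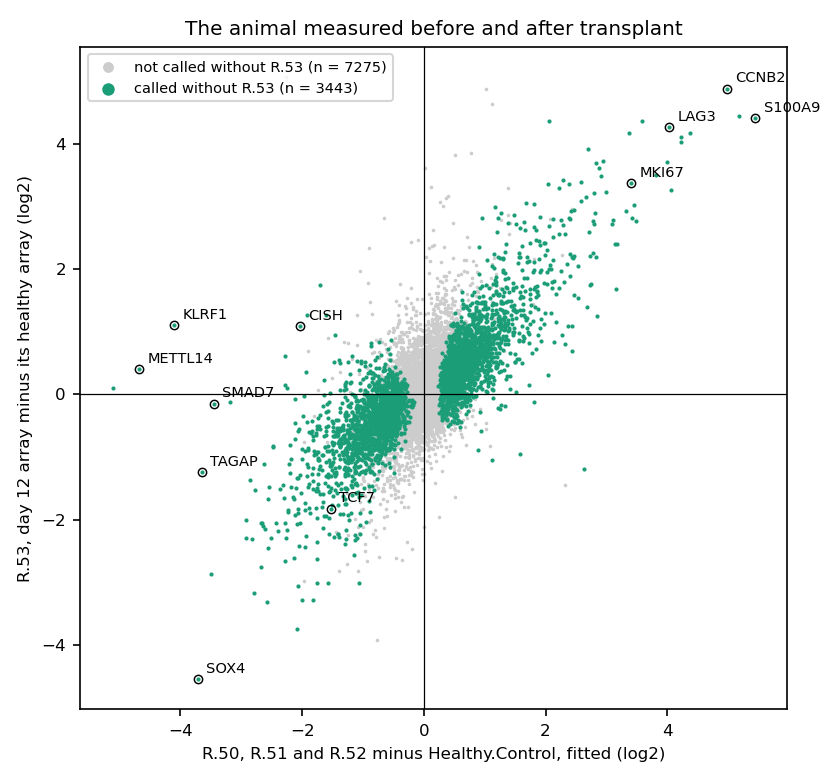
Each point is a gene, with the fitted difference of R.50, R.51 and R.52 from Healthy.Control (log2) across and the day 12 minus the Healthy.Control array of R.53 (log2) upwards, green for the 3443 genes called without R.53. CCNB2, MKI67, LAG3 and S100A9 lie high in both and TCF7 and SOX4 low in both, whereas KLRF1, METTL14, SMAD7 and CISH are low across but lie at -0.15 to 1.11 upwards.

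The sirolimus group sets these values against recipients of donor cells given 1 prophylactic drug. Some division genes were higher without it, LAG3 and OX40 were not shown to differ, and several resting and signalling genes were lower. Of the 10718 genes 554 were higher in NoRx.F than in Siro.F (5.17%) and 414 lower (3.86%). CCNB2 had a mean of 10.27 in NoRx.F and 7.84 in Siro.F, a difference of 2.42 ± 0.57, adjusted p = 0.0032. MCM4 and MCM5 were higher by 1.72 ± 0.30, adjusted p = 5.38e-05 and 1.54 ± 0.25, adjusted p = 1.59e-05, and MKI67 by 1.72 ± 0.45, adjusted p = 0.00928. In all, 15 of 32 replication genes, 10 of 39 of mitosis, 23 of 57 of the mitochondrial ribosome, 13 of 23 of the proteasome and 14 of 25 of complex I were higher, and in these lists 1 gene, of complex I, was lower. In Siro.F the mean level of the mitosis list was 6.77 to 8.4, so that its highest array was above R.51 and R.53, and that of the replication list was 6.8 to 8.07, against 7.55 to 8.42 in NoRx.F. LAG3 differed by 1.25 ± 0.43, adjusted p = 0.0603, ENTPD1 by 0.35 ± 0.34, adjusted p = 0.65, CTLA4 by -0.01 ± 0.43, adjusted p = 0.996 and TNFRSF4 by -0.48 ± 0.23, adjusted p = 0.248. Naive and memory genes were lower in 6 of 29 cases, TCF7 by -1.20 ± 0.22, adjusted p = 0.000164 and IL6R by -1.83 ± 0.35, adjusted p = 0.000301, and CISH was lower by 2.44 ± 0.47, adjusted p = 0.000339. Siro.F was sampled at days 12 to 24 and NoRx.F at days 6 to 12. The 2047 probe sets that passed fell to 5 when only these 8 arrays were fitted, to 1166 with array weights and to 376 without R.50 and R.52, and leaving out 1 array at a time gave 1093 (without R.16) to 2808 (without R.53), with 1224 without R.17, 1214 without R.50 and 1254 without R.52.

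The autologous group sets them against a transplant without donor cells. Some genes of division were again higher in NoRx.F, and inhibitory and interferon genes gave mixed values. Of the genes 399 were higher in NoRx.F (3.72%) and 476 lower (4.44%). TOP2A had a mean of 9.79 in NoRx.F and 7.11 in Auto.D14, a difference of 2.77 ± 0.80, adjusted p = 0.0205. MCM4 was higher by 1.91 ± 0.39, adjusted p = 0.00118 and CDKN3 by 1.76 ± 0.55, adjusted p = 0.0336, and 10 of 32 replication and 10 of 39 mitosis genes were higher and none lower. CTLA4 was higher by 1.75 ± 0.57, adjusted p = 0.0411 and ENTPD1 by 1.42 ± 0.45, adjusted p = 0.0381, whereas LAG3 differed by 1.36 ± 0.56, adjusted p = 0.12, ISG15 by 0.07 ± 0.63, adjusted p = 0.968 and IFI27 by 0.49 ± 0.89, adjusted p = 0.797. The groups share no batch, and 2 of the 3 Auto.D14 arrays have an actin ratio above 3, against at most 0.91 in NoRx.F. The 2378 probe sets that passed were 79 without the 6 arrays of high actin ratio, which include those of R.201 and R.202, 624 without R.201, 798 without R.202, 4463 without R.200, 4074 without a batch term, 5035 with array weights and 836 without R.50 and R.52. Both comparisons use the same 4 NoRx.F arrays as the comparison with healthy animals.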

How the data were processed

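The authors deposited 1 table of RMA values on the log2 scale, 52865 probe sets by 102 arrays. RMA (background correction, quantile normalization and summary) and affy are named in the submitters' processing notes, without versions, and no further step is given in the sources used here. Biotinylated cRNA came from the Affymetrix 3' kit, per the labels' protocols. The deposited values were used without further scaling. Groups, animals, days and batches came from the labels, and the 2 arrays of R.201 (r = 0.9946) were averaged. The 158 control probe sets were left out, and 31703 that reached 5.2133, the overall median, in 3 or more arrays were tested with limma 3.58.1 in R 4.3.3: means of 16 groups, labelled batch as a factor, empirical Bayes (residual df 80, prior df 3.38), Benjamini-Hochberg over all probe sets tested. Of all probe sets 24969 name 1 gene in the platform annotation, 361 several and 27535 none, and 10718 genes had a tested probe set of their own. Microarrays give no read depth, so the number of arrays limits precision. Tested on simulated data for the comparison with healthy animals, the fit recovered 84% of 2-fold and 98% of 4-fold changes among 200 changed probe sets of 31703, with 9 false calls. The simulated noise was normal and independent under the same model, with far fewer changes than the 27.5% of probe sets called here. Recurring animals and any batch step before deposit were not simulated, so these rates need not hold for the real arrays. Python 3.11.15 with pandas 2.3.3 and matplotlib 3.10.9 made tables and plots.

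The genes given by name are those a rule picks: 15 genes with the largest rise, 15 with the largest fall, up to 8 members of each list past the threshold with the largest change, up to 4 others of highest mean, a fixed set of T cell genes, and the cell type markers. The 15 rises and 15 falls were taken among genes past the threshold whose higher group mean was at least the median of all values. All 4 NoRx.F arrays also had to lie on the same side of the healthy median, so their agreement in side was required for the choice. POLE2, OAS1 and ANXA1 are named outside the rule, after their values were seen, as the single falls of their lists. The members and lists were chosen with earlier results of these data known. Genes of antigen receptors, immunoglobulins, MHC and killer immunoglobulin-like receptors are not named. Promoter sequences were not used here. Alternatives of batch, filter, scaling, prior, array weights and arrays left out were run.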

Additional observations from a re-analysis of the deposited data

Results flagged for a closer look

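In 7 of the 215 genes given with values, 1 of the 4 NoRx.F arrays lay far from the other 3, by a gap of a size that chance gives in about 1 of 20 groups of 4. R.53 stood apart in 3 of them. It read 9.16 for CISH, a suppressor of cytokine signals, with the nearest array at 6.44, and 9.32 for KLRF1, an NK receptor, with the nearest at 5.57. For TSC22D3, the glucocorticoid-induced GILZ, it read 12.03 with the nearest at 11.20. In each of these genes R.53 was inside the healthy range and the other 3 arrays below it.

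R.51 stood apart in 3 genes that did not pass the threshold. It read 5.57 for FOXP3, the factor of regulatory T cells, with the nearest array at 4.91, and 8.81 for PRDM1, which encodes BLIMP-1, with the nearest at 9.85. For FOXO1, a factor of quiescence, it read 9.16 with the nearest at 9.31. R.50 stood apart in TNFSF4, the ligand of OX40, at 5.41 with the nearest at 5.88, again in a gene that did not pass.

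The differences between groups after transplant were tested directly. Against Siro.F 2047 probe sets passed the threshold, and against Auto.D14 2378 did, counts that move with the arrays fitted as given beside those comparisons.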

How the results depend on the processing

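The count of 8704 probe sets against healthy animals ranged from 5837 to 11276 under the other settings except 2. It was 2001 with a 2-fold minimum and 5104 without R.50 and R.52, the arrays of highest S100A8 and S100A9, a fit with fewer arrays. Leaving out 1 NoRx.F array gave 7330 to 8121. Median centring put the share of higher calls at 44.3%, against 49.1%. Of 161 named genes past the threshold 132 kept direction and call under all 20 alternatives, and 24 lost the call without R.50 and R.52. With the mean of a gene's probe sets DLGAP5 became 0.859, OAS1 0.505 and POLE2 0.857, since their probe sets disagree. The 1531 probe sets outside the healthy range were 2450 against batches 1 and 2 alone, which hold fewer healthy animals, and 1671 to 2942 without 1 array, the most without R.53.

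The 2047 against Siro.F were 386 with a 2-fold minimum and 5 with these 2 groups alone (unadjusted p under 0.05 in 4241). Limiting that to batches 1 and 2 is the same fit, since both groups lie only there. The count was 1166 with array weights, 376 without R.50 and R.52, and 1093 to 2808 with 1 array left out (1214 without R.50, 1254 without R.52, 1224 without R.17). The 2378 against Auto.D14 were 1183 with a 2-fold minimum, 4074 without a batch term, 5035 with array weights, 79 without high actin ratios, 836 without R.50 and R.52, and 624 to 4463 with 1 array left out (798 without R.202). Beyond the smaller number of arrays the causes were not tested. The fit of only NoRx.F and Auto.D14 with batch could not be made, since they share none. The alternatives on S100A8 and S100A9 and on the actin ratio were chosen after seeing the data.

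The 4 animals differ in day, and day, batch and animal cannot be told apart. A probe set near background gives only a poor estimate of a fold. No paired analysis was possible because only R.53 has arrays in both groups. With the animal as a random block, which uses all recurring animals (estimated correlation 0.11), 8823 probe sets passed against healthy animals, 2241 against Siro.F and 2690 against Auto.D14.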

Other observations

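Some splicing and biosynthetic genes moved too. Of 30 splicing factors 14 rose (46.7%, against 19% of all genes) and 4 fell (13.3%, against 15.2%). The median difference was 0.28, and 6 rose without R.50 and R.52. SNRPF and SNRPB, proteins of the core ring of spliceosomal particles, read 11.25, 10.60, 11.11 and 10.64 and 10.48, 9.80, 10.58 and 10.37 in R.50, R.51, R.52 and R.53, above every healthy animal, and rose by 0.88 ± 0.10 and 0.87 ± 0.14. HNRNPA1, an abundant splicing regulator, differed by -0.02 ± 0.11, adjusted p = 0.904. Of 17 genes of the citrate cycle 8 rose (47.1%, against 19% of all genes) and 2 fell (11.8%, against 15.2%). Among the rises were MDH2, malate dehydrogenase, at 0.83 ± 0.12 and SDHB of succinate dehydrogenase at 0.64 ± 0.11. Without R.50 and R.52 the rises numbered 2. Of 18 genes of sterol and fatty acid synthesis 5 rose (27.8%, against 19% of all genes) and none fell. The other 13 did not pass, and the median of the list was 0.263. PMVK, an enzyme of the mevalonate pathway, read 10.73 in R.50, 9.92 in R.51, 10.51 in R.52 and 9.63 in R.53 (8.18 to 9.23, median 8.75) and rose by 1.46 ± 0.15, adjusted p = 5.53e-13. PHGDH, the first enzyme of serine synthesis, rose by 1.45 ± 0.25, adjusted p = 2.95e-06, in 3 arrays above every healthy animal and in R.53 within their range.

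Few T cell cytokines passed the threshold. Of 25 measured 2 rose (8%, against 19% of all genes) and 3 fell (12%, against 15.2%). IL16, a chemoattractant of CD4 cells, read 8.87 in R.50, 8.90 in R.51, 8.71 in R.52 and 9.06 in R.53 (9.47 to 10.64, median 9.93), below every healthy animal, and fell by 0.91 ± 0.15, adjusted p = 1.16e-06. LTB, which encodes lymphotoxin beta, a builder of lymphoid tissue, fell by 0.78 ± 0.16, adjusted p = 5.8e-05 (adjusted p = 0.125 without R.50 and R.52). CCL5, the chemokine of memory and cytotoxic T cells, differed by -0.32 ± 0.55, adjusted p = 0.721, and TNFSF10, the death ligand TRAIL, by 0.17 ± 0.37, adjusted p = 0.787. Of 10 Th17 genes 2 rose and 1 fell, 20% and 10%, near the 19% and 15.2% of all genes. IL17F, whose level was near the median of all values, rose by 0.68 ± 0.13, adjusted p = 2.28e-05 on 3 of 3 probe sets. HSPA8, a constitutive heat shock protein, rose by 0.95 ± 0.13, adjusted p = 1.78e-08, as 1 of 2 rises and 1 fall among 9 heat shock genes. These shares, 22.2% and 11.1%, are near those of all genes.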
